A study of Mus musculus with 12 samples.

Results

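The 35 genes described here are a list of macrophage and monocyte genes, and each was found in the counts table by matching its symbol to an Ensembl gene identifier. They are 35 of 49671 genes in the table, and 34 of them passed the filter on low counts, among 15399 genes tested. The 35th, the scavenger receptor gene Marco, had 48 counts over all libraries and was not tested. The 34 tested genes range from 0.829 CPM (Cd163) to 3620 CPM (Lyz2) in their mean over all libraries, where CPM is the counts scaled to a common library size after TMM normalisation.

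RNA was sequenced from 12 mouse libraries, each labelled as a pool of embryos of embryonic day 9.5. The 4 genotypes, with 3 biological replicates each, are LYL1 SCL DKO (both genes knocked out), SCL KO, LYL1 KO and wild type. Lyl1 and Scl (gene symbol Tal1) encode related transcription factors of early blood cells, and the series concerns Lyl1 in the formation of primitive red cells. The pools hide differences between embryos, and no allele, strain or number of embryos per pool is stated in the labels. Since nothing says which pools came from separate litters, p-values measure the spread between these libraries.

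Macrophages and monocytes are phagocytes. They depend on signalling through the receptor Csf1r, engulf dying cells and microbes through scavenger, Fc and complement receptors, break the cargo down in lysosomes, and make reactive oxygen with the NADPH oxidase. In the embryo the first macrophages arise in the yolk sac, at about the time of the primitive red cells and the first megakaryocytes.

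Facts of the whole series that touch these genes are as follows. The libraries held 24324685 to 29212443 counted reads each, and 3 counts, the upper limit for a gene seen 0 times, stood for 0.0936 to 0.131 CPM. Tal1 was at 16.2% of its wild-type level in LYL1 SCL DKO and 19.1% in SCL KO. Lyl1 RNA was at 46.5% of wild type in LYL1 SCL DKO and 48.5% in LYL1 KO, and the fall was called in LYL1 SCL DKO (adjusted p = 0.00413) but not in LYL1 KO (adjusted p = 0.286). The markers of embryonic tissue were low: the 6 yolk sac and visceral endoderm genes summed to 1.34 to 11.7 CPM, and Ttr, a carrier protein of the visceral endoderm, had no count. Of 10 red cell genes, 6 passed the filter on low counts. Hba-x, Slc4a1, Alas2 and Klf1 did not, with 5, 4, 13 and 28 counts over all libraries. Among those that passed, Hbb-bh1 averaged 0.611 CPM and Hbb-bt 347.3 CPM. The labels name pooled embryos and no sorting or culture, so which cells of the embryo the RNA came from cannot be told from the labels and markers, and a level is a share of RNA in which megakaryocyte genes led. The 20 megakaryocyte and platelet genes summed to 19510 to 79004 CPM, against 6836 to 16766 CPM for the 35 macrophage and monocyte genes. Xist RNA was at 0.402 and 0.598 CPM in LYL1 SCL DKO 1 and 2 and at 1.79 CPM in LYL1 KO 3, while the other 9 libraries held 356 to 740 CPM; no wild-type or SCL KO library was among the 3 low ones.

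One library stood apart on the macrophage and monocyte genes. The mean log2 deviation of the tested genes from their wild-type mean was 0.793 in wild type 1. In wild type 2 the value was -0.0587 and in wild type 3 it was -0.734. In the knockout groups these deviations lay between -0.292 and 0.175. The wild-type libraries thus spread more widely on these genes than those of any knockout group. The counts of members called against wild type are given with and without wild type 1; for genes outside the list no value without wild type 1 is given. In these bulk samples, fewer macrophages, less of an RNA per macrophage and a change of that RNA in other cells cannot be told apart.

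**Figure D1:**
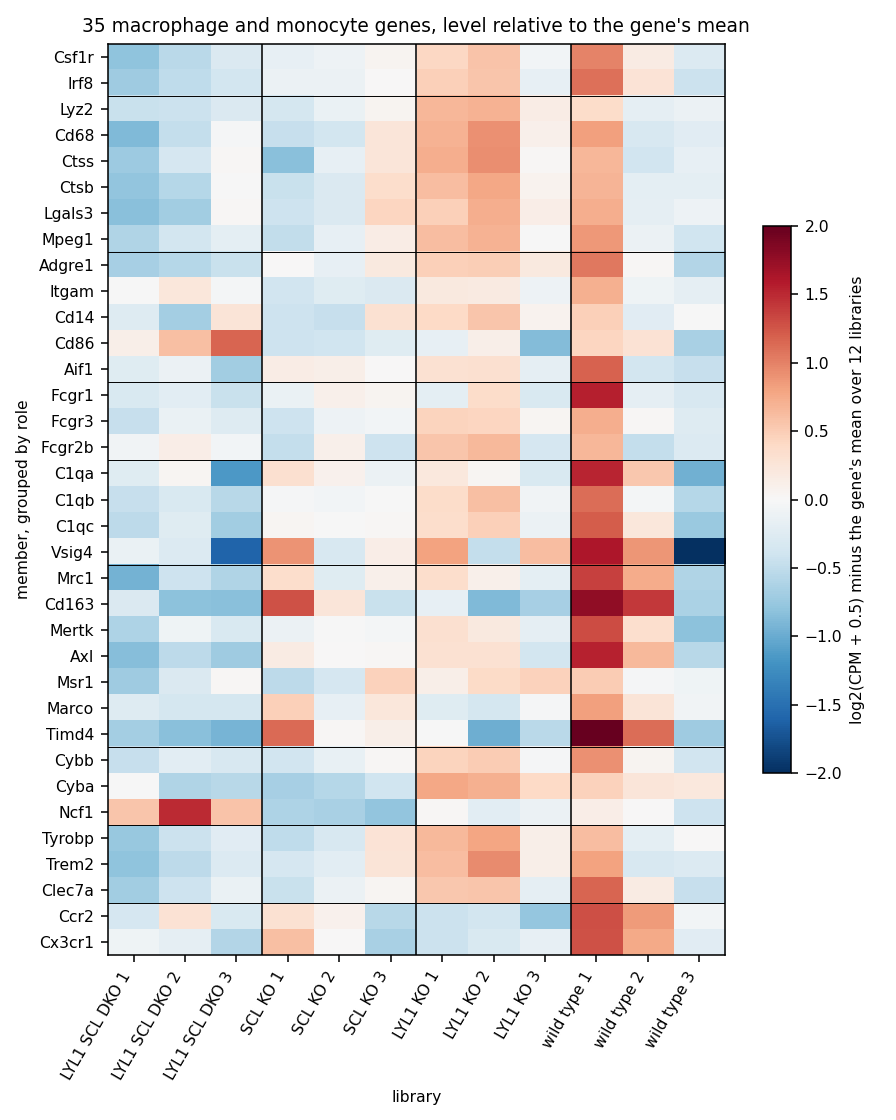
Level of each of the 35 genes in each library, as log2(CPM + 0.5) minus the gene's mean over the 12 libraries (colour scale from -2 to 2), with genes in rows grouped by role and libraries in columns grouped by genotype. Wild type 1 is above the mean for nearly all genes, most genes are below it in LYL1 SCL DKO, and Ncf1 and Cd86 run against the other rows there.

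Promoter sequences are shown for the NADPH oxidase genes, because Ncf1 was the one member called higher in LYL1 SCL DKO while Cyba was called lower and Cybb, though not called, had a negative fold change, and for the neighbours C1qb and C1qc, whose levels moved together over the libraries. Each is the 250 bases before the RefSeq gene start in GRCm38.p6, written 5′ to 3′ on the gene's own strand. Capitals mark matches, on either strand, to 4 motifs that were searched: GAGGAA, the core bound by PU.1, AGATAA, bound by GATA factors, and the E-boxes CAGCTG and CAGATG, of the kind bound by Scl and Lyl1 dimers.
Ncf1 (chr5:134229626-134229875, minus strand): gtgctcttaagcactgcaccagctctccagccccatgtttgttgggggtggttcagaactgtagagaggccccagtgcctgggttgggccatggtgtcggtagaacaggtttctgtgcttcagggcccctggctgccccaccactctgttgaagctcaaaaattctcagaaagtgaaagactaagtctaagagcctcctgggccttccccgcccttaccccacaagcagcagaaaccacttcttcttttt
Cyba (chr8:122432941-122433190, minus strand): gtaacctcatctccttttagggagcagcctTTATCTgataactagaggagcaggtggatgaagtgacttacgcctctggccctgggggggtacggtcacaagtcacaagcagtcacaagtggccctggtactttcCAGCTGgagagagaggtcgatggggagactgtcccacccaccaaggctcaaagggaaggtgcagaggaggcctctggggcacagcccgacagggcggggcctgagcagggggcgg
Cybb (chrX:9469325-9469574, minus strand): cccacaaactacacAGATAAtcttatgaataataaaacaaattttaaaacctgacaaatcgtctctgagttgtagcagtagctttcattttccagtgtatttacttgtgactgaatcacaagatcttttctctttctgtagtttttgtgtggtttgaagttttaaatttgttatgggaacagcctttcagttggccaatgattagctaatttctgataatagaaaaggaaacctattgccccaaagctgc
C1qb (chr4:136886201-136886450, minus strand): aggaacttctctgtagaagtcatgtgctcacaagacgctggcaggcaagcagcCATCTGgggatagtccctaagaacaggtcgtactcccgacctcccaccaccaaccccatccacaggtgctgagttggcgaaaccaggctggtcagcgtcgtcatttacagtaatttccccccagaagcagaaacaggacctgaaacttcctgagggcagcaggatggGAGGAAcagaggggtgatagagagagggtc
C1qc (chr4:136892915-136893164, minus strand): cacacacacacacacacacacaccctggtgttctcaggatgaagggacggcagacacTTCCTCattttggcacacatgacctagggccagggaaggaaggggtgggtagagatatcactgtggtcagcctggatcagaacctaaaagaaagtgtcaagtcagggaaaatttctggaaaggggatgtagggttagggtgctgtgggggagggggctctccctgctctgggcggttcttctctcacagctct

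The Ncf1 window held none of the 4 motifs. The Cyba window held AGATAA, read as TTATCT on the printed strand, 220 bases before the start, and CAGCTG 115 bases before it. The Cybb window held AGATAA 236 bases before the RefSeq start, which lies inside the longer Ensembl gene model that was counted. In C1qb the PU.1 core lay 30 bases before the start and CAGATG, read as CATCTG, at 197 bases, and in C1qc the PU.1 core, read as TTCCTC, lay at 193 bases. Windows were found for 27 of the 35 genes. The PU.1 core was in 14 of these 27 and in 23.4% of all 32536 windows of this length. AGATAA was in 4 of the 27 (9.97% of all windows), CAGCTG in 5 (13.1%) and CAGATG in 4 (14.4%). In the windows printed here the motif matches did not overlap. A match is a string of letters and no evidence of binding.

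The summed level of the 35 genes after TMM scaling was lowest in LYL1 SCL DKO, but with library totals it was lowest in SCL KO. It was 6836, 7755 and 9207 CPM in LYL1 SCL DKO 1, 2 and 3, 7685, 8880 and 11482 CPM in SCL KO, 15646, 16766 and 10767 CPM in LYL1 KO and 15961, 9251 and 8907 CPM in wild type. All 3 LYL1 SCL DKO libraries lay below all 3 LYL1 KO libraries. LYL1 SCL DKO 2 and 3 lay inside the range of SCL KO, and LYL1 SCL DKO 3 also inside that of wild type. The group means were 7933 ± 1196 CPM in LYL1 SCL DKO, 9349 ± 1942 CPM in SCL KO, 14393 ± 3190 CPM in LYL1 KO and 11373 ± 3977 CPM in wild type (SD, n = 3 each). With library totals the means were 9804 CPM in LYL1 SCL DKO, 9418 CPM in SCL KO, 12780.0 CPM in LYL1 KO and 10447 CPM in wild type. As a share of all counts, the 35 genes took 0.780% to 1.20% of a LYL1 SCL DKO library, 0.730% to 1.24% in SCL KO, 0.986% to 1.52% in LYL1 KO and 0.826% to 1.46% in wild type. No test was run on this sum.

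**Figure D2:**
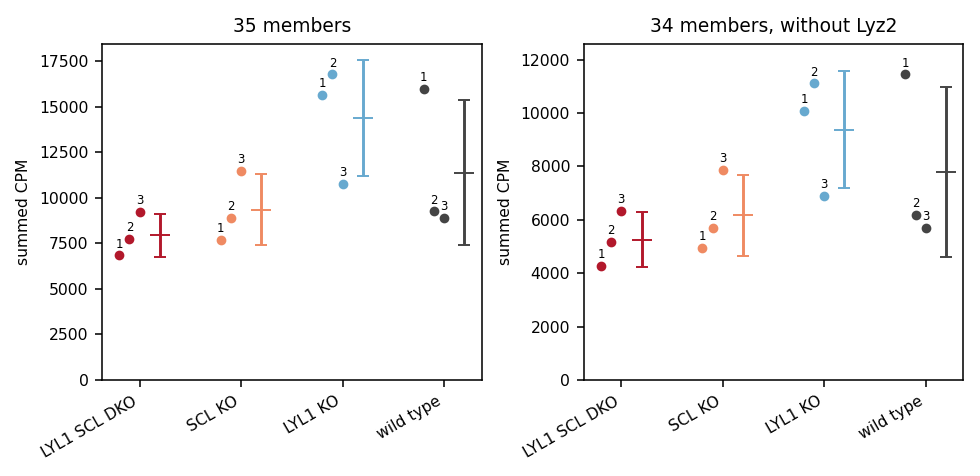
Summed CPM of the 35 genes (left) and of the 34 genes other than Lyz2 (right) in each library, numbered by replicate, with the mean and SD of each genotype beside the points. LYL1 SCL DKO libraries lie between 6836 and 9207 CPM in the left panel, and wild type 1, at 15961 CPM, stands above the other 2 wild-type libraries.

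Between LYL1 SCL DKO and wild type, edgeR's quasi-likelihood test over all 15399 genes called 10 of the 34 genes, where called means an adjusted p (Benjamini-Hochberg over all genes tested) under 0.05. One was higher (Ncf1) and 9 were lower: Csf1r, Irf8, Adgre1, Mrc1, Cd163, Axl, Timd4, Cyba and Ccr2. Of all genes tested, 16.4% were called higher and 18.1% lower in this comparison, so 9 of 34 stands against a background of 18.1%. The median log2 fold change of the 34 genes was -0.70 and that of all genes was 0.04. Without wild type 1 only Cyba and Ncf1 were called and the median was -0.24. With a term for Xist RNA in the fit, 1 member was called, Cd86, higher. Over all genes, 5312 were called in the main fit, 4128 without wild type 1 and 3809 with the Xist term. With library totals in place of TMM factors, a scaling added after seeing the data, 2 members were called higher and 4 lower. That scaling moved the median of all genes to 0.46, and 8065 of all genes were called.

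Between LYL1 SCL DKO and LYL1 KO, 12 of the 34 were called, 1 higher (Ncf1) and 11 lower: Csf1r, Irf8, Lyz2, Cd68, Ctsb, Lgals3, Mpeg1, Adgre1, Cyba, Tyrobp and Trem2. The background was 17.4% higher and 17.9% lower. The median was -0.74, against 0.06 for all genes. This comparison does not use the wild-type libraries in its contrast. The count fell to 5 without LYL1 KO 1, to 3 without LYL1 KO 2, and to 5 without LYL1 SCL DKO 1 or 2, to 6 with the Xist term, and to 4 (3 higher, 1 lower) with library totals, which moved the median of all genes to 0.53. Over all genes, 5422 were called in the main fit, 3884 without LYL1 KO 1 and 4211 without LYL1 KO 2. There were 5085 and 4314 without LYL1 SCL DKO 1 and 2, 4852 with the Xist term and 8313 with library totals. The LYL1 SCL DKO libraries are shared by both comparisons, so the 2 sets of calls are not independent.

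The other 4 contrasts called at most 1 member each. Between LYL1 SCL DKO and SCL KO that member was Ncf1, higher (background 8.37% higher, 10.8% lower; median -0.32, against 0.03 for all genes). With the replicate number as a block in the fit of all 12 libraries, 3 members were called: Ncf1, higher, and Cd163 and Timd4, lower. Over all genes, 2947 were called in the main fit and 3722 with the block. The block fit shares the effect of the number with LYL1 KO and wild type, where pairing by number was not accepted. It is therefore no paired test of LYL1 SCL DKO and SCL KO alone. The main fit of this contrast is unpaired. Between SCL KO and wild type the member was Cyba, lower (background 2.29% higher, 2.73% lower). All 34 fold changes were negative in that contrast, with a median of -0.46 (all genes: 0.004), but without wild type 1 the median was 0.01 and no member was called. Without wild type 3, 5 members were called lower: Axl, Ccr2, Cyba, Mertk and Mrc1. Over all genes, 774 were called in the main fit of that contrast, 435 without wild type 1 and 955 without wild type 3. Between LYL1 KO and wild type no member was called by edgeR (background 0.039% higher, 0.0325% lower), while limma-voom called none, DESeq2 (Wald test) called Ccr2, and before adjustment 5 had p under 0.05 in edgeR. The median there was -0.04, and without wild type 1 it was 0.43. The interaction (LYL1 SCL DKO minus SCL KO, less LYL1 KO minus wild type) called Ncf1, higher (background 3.51% higher, 5.86% lower). The median there was -0.25, against 0.04 for all genes. Without wild type 1 it was -0.70, and Adgre1, C1qb and Trem2 were called lower besides Ncf1. Without wild type 3 the median was -0.00109, and Ccr2 and Cd86 were called higher besides Ncf1. Over all genes, the interaction called 1444 in the main fit, 1010 without wild type 1 and 1161 without wild type 3.

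**Figure D3:**
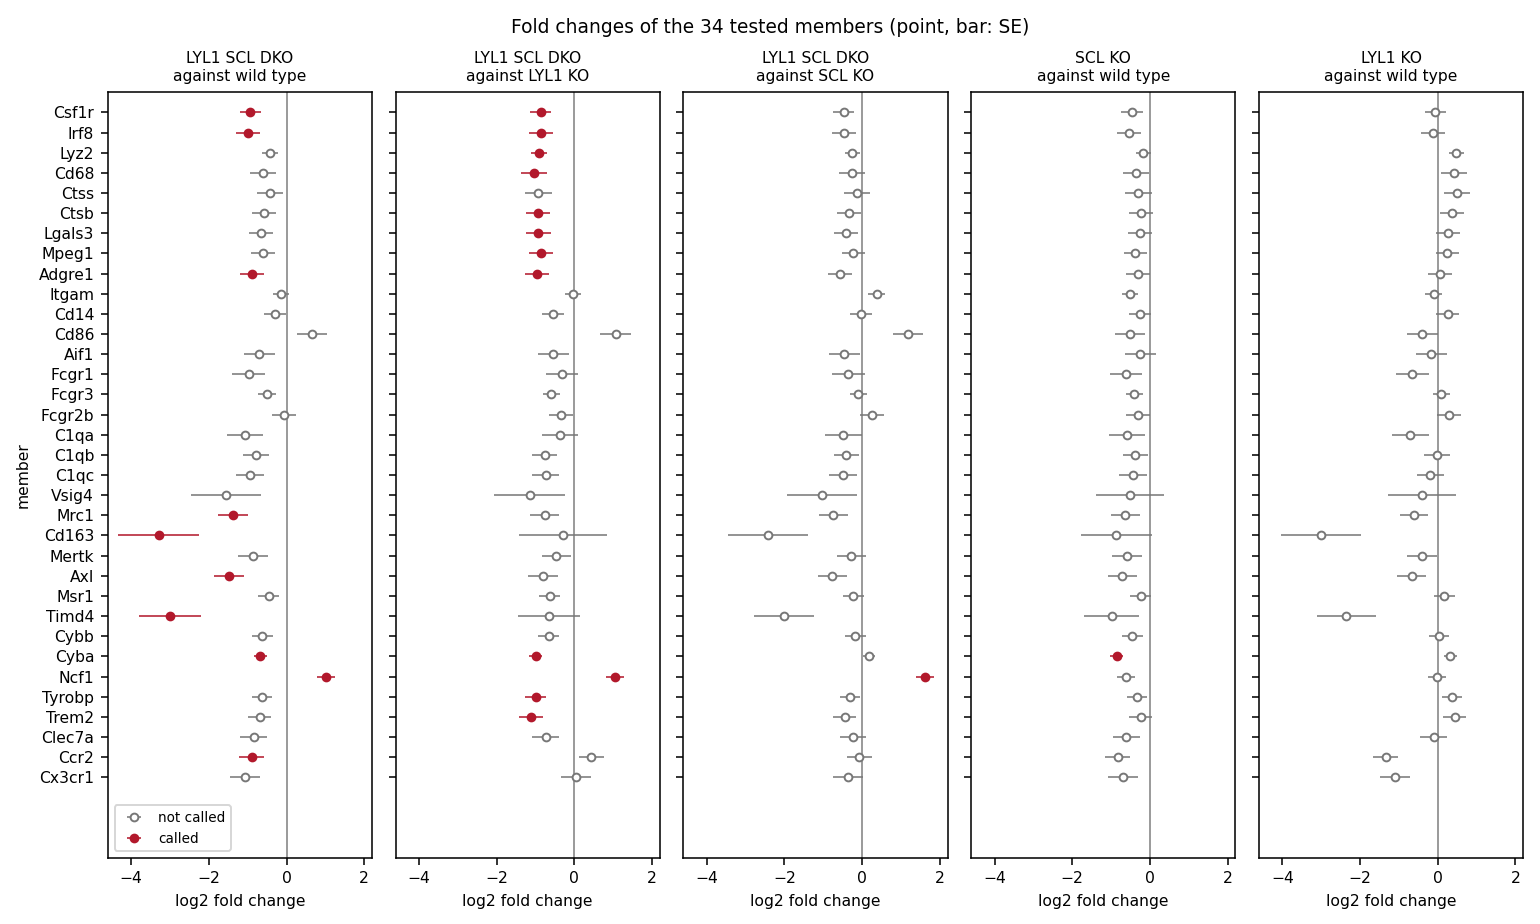
Log2 fold change (point) and its SE (bar) of the 34 tested genes in 5 pairwise contrasts, filled where the adjusted p was under 0.05. The 11 lower calls against LYL1 KO lie between -0.85 and -1.12, and in the 3 contrasts of LYL1 SCL DKO Ncf1 is the only filled point right of 0.

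The receptor Csf1r, through which macrophages receive their survival signal, and Irf8, a transcription factor of monocytes and dendritic cells, were both lower in LYL1 SCL DKO. Csf1r was at 78.7, 94.4 and 113 CPM in LYL1 SCL DKO libraries, 123, 129 and 144 CPM in SCL KO, 184, 206 and 132 CPM in LYL1 KO and 276, 155 and 114 CPM in wild type. The LYL1 SCL DKO libraries lay below those of each of the other groups, but wild type 3 and LYL1 SCL DKO 3 were nearly level. Csf1r fell by 0.93 ± 0.27 on the log2 scale against wild type (adjusted p = 0.0208) and by 0.87 ± 0.27 against LYL1 KO (adjusted p = 0.0273). Irf8 was at 19.4, 22.3 and 24.6 CPM in LYL1 SCL DKO libraries, 29.4, 29.5 and 32.2 CPM in SCL KO, 44.8, 47.1 and 28.6 CPM in LYL1 KO and 69.4, 38.9 and 23.6 CPM in wild type. It fell by 0.99 ± 0.31 against wild type (adjusted p = 0.0277), where the groups overlap, and by 0.86 ± 0.31 against LYL1 KO (adjusted p = 0.0481), where they do not. Against wild type and without wild type 1, neither was called (Csf1r -0.50, adjusted p = 0.103; Irf8 -0.50, adjusted p = 0.15). Against LYL1 KO both calls were lost without LYL1 KO 1 or 2 or LYL1 SCL DKO 1 or 2, and with library totals (Csf1r -0.39, adjusted p = 0.257; Irf8 -0.38, adjusted p = 0.312); that of Irf8 was also lost without LYL1 SCL DKO 3.

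The ligands of Csf1r and the factor PU.1 are no members of the list and were looked up after the values of the members were seen, except Il34, which the rule for other genes named. Il34, one of the ligands, was at 23.9, 28.2 and 31.4 CPM in LYL1 SCL DKO libraries, 7.12, 7.67 and 7.07 CPM in SCL KO, 6.72, 3.31 and 5.57 CPM in LYL1 KO and 3.46, 3.70 and 5.36 CPM in wild type. Every LYL1 SCL DKO library lay above every library of the other groups, and Il34 rose by 2.73 ± 0.25 against wild type (adjusted p = 1.15e-05), by 1.93 ± 0.24 against SCL KO (adjusted p = 0.000297) and by 2.42 ± 0.25 against LYL1 KO (adjusted p = 2.09e-05). Csf1, the other ligand, lay between 7.43 and 25.0 CPM and was not called in any pairwise contrast (LYL1 SCL DKO against wild type -0.66 ± 0.35, adjusted p = 0.162). Spi1, which encodes PU.1, had a log2 fold change of 0.15 ± 0.29 in LYL1 SCL DKO against wild type (adjusted p = 0.716) and lay between 28.7 and 60.5 CPM.

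Of the adaptor Tyrobp, which carries an activating motif for several receptors, its partner receptor Trem2 and the fungal glucan receptor Clec7a, the first 2 were called lower in LYL1 SCL DKO against LYL1 KO. Tyrobp was at 60.3, 75.7 and 87.3 CPM in LYL1 SCL DKO libraries, 71.6, 81.1 and 124 CPM in SCL KO, 159, 176 and 110.0 CPM in LYL1 KO and 156, 88.5 and 102 CPM in wild type. Its LYL1 SCL DKO libraries lay below all LYL1 KO and all wild-type libraries, and it fell by 1.00 ± 0.26 against LYL1 KO (adjusted p = 0.0111). Trem2 was at 48.3, 59.1 and 70.3 CPM in LYL1 SCL DKO libraries, 67.4, 73.6 and 102 CPM in SCL KO, 131, 164 and 92.3 CPM in LYL1 KO and 148, 67.9 and 70.7 CPM in wild type. Its LYL1 SCL DKO libraries lay below all LYL1 KO libraries and overlapped with wild type, and it fell by 1.12 ± 0.31 against LYL1 KO (adjusted p = 0.0135). Both calls were lost without LYL1 KO 2 and with library totals (Tyrobp -0.52, adjusted p = 0.148; Trem2 -0.65, adjusted p = 0.112), and that of Trem2 also without LYL1 SCL DKO 1. The CPM ratio of Trem2 to Tyrobp lay between 0.692 and 0.95 in all 12 libraries. Clec7a was at 91.2 to 134 CPM in LYL1 SCL DKO and at 106 to 330 CPM in wild type. It was not called by edgeR in any contrast, but DESeq2's Wald test called it lower in LYL1 SCL DKO against wild type.

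Of the surface and cytoskeleton markers, Adgre1, the F4/80 antigen of mouse macrophages, was the one called. Adgre1 was at 40.5, 43.1 and 47.2 CPM in LYL1 SCL DKO libraries, 64.3, 57.1 and 73.9 CPM in SCL KO, 89.6, 90.7 and 73.4 CPM in LYL1 KO and 135, 65.3 and 42.5 CPM in wild type. The LYL1 SCL DKO libraries lay below all SCL KO and LYL1 KO libraries and on both sides of wild type 3, and Adgre1 fell by 0.89 ± 0.31 against wild type (adjusted p = 0.0427) and by 0.96 ± 0.31 against LYL1 KO (adjusted p = 0.0309). Without wild type 1 its log2 fold change against wild type was -0.31 (adjusted p = 0.246). Against LYL1 KO the call was lost without LYL1 KO 1 or 2 or any 1 of the LYL1 SCL DKO libraries, and with library totals (-0.49, adjusted p = 0.207). Itgam, the integrin chain CD11b, lay between 18.3 and 39.7 CPM, Cd14, a co-receptor for lipopolysaccharide, between 8.96 and 21.7 CPM, and Aif1, the actin-binding protein Iba1, between 3.78 and 15.1 CPM; none of these was called by edgeR.

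Cd86, a costimulatory ligand for T cells, was the second gene to run against the rest, but edgeR did not call it. It was at 3.52, 5.11 and 7.77 CPM in LYL1 SCL DKO libraries, 2.28, 2.32 and 2.62 CPM in SCL KO, 2.79, 3.50 and 1.53 CPM in LYL1 KO and 4.50, 4.01 and 1.86 CPM in wild type. Its 3 LYL1 SCL DKO libraries lay above all SCL KO and all LYL1 KO libraries and overlapped with wild type. The log2 fold change was 1.18 ± 0.39 against SCL KO (adjusted p = 0.0544) and 1.06 ± 0.39 against LYL1 KO (adjusted p = 0.0525). DESeq2's Wald test called it higher in both contrasts and in the interaction, the filter of 1 CPM in 3 libraries gave a call against LYL1 KO, and the Xist term and library totals gave one in each contrast of LYL1 SCL DKO. Relative to Csf1r, Cd86 had a CPM ratio of 0.0447 to 0.069 in LYL1 SCL DKO, against 0.0116 to 0.0259 in the other 9 libraries.

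The Fc gamma receptors, which bind antibody-coated particles, were not called by edgeR in any contrast. DESeq2's Wald test called Fcgr1 lower in LYL1 SCL DKO against wild type and Fcgr3 lower against LYL1 KO, and with DESeq2's size factors edgeR also called Fcgr3 there. Fcgr3 was the most abundant, at 46.8 to 58.8 CPM in LYL1 SCL DKO and 53.5 to 107 CPM in wild type, and its log2 fold change against LYL1 KO was -0.60 ± 0.22 (adjusted p = 0.0543). Fcgr2b, the inhibitory receptor, was at 31.2 to 36.1 CPM in LYL1 SCL DKO and 23.5 to 52.6 CPM in wild type. Fcgr1, the high-affinity receptor, was at 7.86 to 9.36 CPM in LYL1 SCL DKO and 8.64 to 32.9 CPM in wild type, the upper end being wild type 1. Fcgr2b and Fcgr3 have similar coding sequences, so reads may be lost or divided between them.

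The C1q genes, which encode the chains of the first complement component and lie side by side on chromosome 4 (C1qb 136880129 to 136886187, C1qc 136889804 to 136893065, C1qa 136895917 to 136898803, GRCm38, all on the minus strand), were not called by edgeR. C1qb was at 95.8, 107 and 89.4 CPM in LYL1 SCL DKO libraries, 129, 128 and 131 CPM in SCL KO, 171, 199.95 and 125 CPM in LYL1 KO and 285, 128 and 88.9 CPM in wild type. C1qc had 0.741 to 1.01 times the CPM of C1qb in each library, and C1qa 0.185 to 0.425 times. The log2 fold changes in LYL1 SCL DKO against wild type were -1.07 ± 0.47 for C1qa, -0.78 ± 0.33 for C1qb and -0.93 ± 0.36 for C1qc, with adjusted p-values of 0.1, 0.0833 and 0.0617; DESeq2's Wald test called all 3 lower. Vsig4, a complement receptor of resident macrophages, was scarce and uneven, at 0.499 to 2.28 CPM in LYL1 SCL DKO and 0.182 to 8.87 CPM in wild type.

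Scavenger receptors and receptors for dying cells held the lower calls of largest size in LYL1 SCL DKO against wild type. Mrc1, the mannose receptor, was at 18.6, 27.1 and 23.8 CPM in LYL1 SCL DKO libraries, 46.5, 30.9 and 39.0 CPM in SCL KO, 46.9, 39.2 and 31.8 CPM in LYL1 KO and 95.3, 61.4 and 23.8 CPM in wild type. Axl, a receptor tyrosine kinase for dying cells, was at 39.2, 49.5 and 43.2 CPM in LYL1 SCL DKO libraries, 80.0, 71.7 and 72.7 CPM in SCL KO, 87.9, 87.6 and 55.3 CPM in LYL1 KO and 208, 112 and 48.1 CPM in wild type. For both, the LYL1 SCL DKO libraries lay below all SCL KO and LYL1 KO libraries but not below wild type 3 throughout. Mrc1 fell by 1.38 ± 0.38 against wild type (adjusted p = 0.0145) and Axl fell by 1.48 ± 0.38 (adjusted p = 0.011). Without wild type 1 the values were -0.89 (adjusted p = 0.0768) for Mrc1 and -0.87 (adjusted p = 0.0509) for Axl.

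Timd4, a phosphatidylserine receptor of resident macrophages, and Cd163, the receptor for haemoglobin bound to haptoglobin, were near the limit of the depth. Timd4 was at 0.569, 0.465 and 0.406 CPM in LYL1 SCL DKO libraries, 3.25, 1.25 and 1.36 CPM in SCL KO, 1.22, 0.377 and 0.681 CPM in LYL1 KO and 7.87, 3.22 and 0.547 CPM in wild type. Cd163 was at 0.368, 0.0996 and 0.0936 CPM in LYL1 SCL DKO libraries, 2.05, 0.749 and 0.280 CPM in SCL KO, 0.446, 0.0753 and 0.170 CPM in LYL1 KO and 3.12, 2.31 and 0.182 CPM in wild type. High levels were seen in wild type 1 and 2 and in SCL KO 1, while wild type 3 was near the knockouts. Timd4 fell by 3.00 ± 0.79 against wild type (adjusted p = 0.0119) and Cd163 fell by 3.29 ± 1.04 (adjusted p = 0.0287). Without wild type 1 they had log2 fold changes of -1.97 (adjusted p = 0.0686) and -2.71 (adjusted p = 0.0984). Cd163 had 249 counts over all libraries with 2 in LYL1 KO 2 and 3 in each of LYL1 SCL DKO 2 and 3. In LYL1 KO against wild type, the log2 fold change was -2.35 ± 0.77 for Timd4 (adjusted p = 0.504) and -3.00 ± 1.04 for Cd163 (adjusted p = 0.519), not called. Mertk, a kinase related to Axl, was at 16.3 to 24.0 CPM in LYL1 SCL DKO and 14.2 to 63.9 CPM in wild type. Msr1, the class A scavenger receptor, was at 15.6 to 26.4 CPM in LYL1 SCL DKO and 24.4 to 37.1 CPM in wild type, and neither of these was called by edgeR. Marco was listed with 0 counts in LYL1 SCL DKO 2 and 3 and in LYL1 KO 2, and reached 0.625 CPM in wild type 1.

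The chemokine receptors of monocytes had their most negative fold changes in LYL1 KO against wild type, without being called there. Ccr2, which brings monocytes out of their site of origin, was at 14.1, 22.2 and 14.6 CPM in LYL1 SCL DKO libraries, 22.4, 19.2 and 12.1 CPM in SCL KO, 13.3, 13.9 and 10.4 CPM in LYL1 KO and 44.8, 32.9 and 17.4 CPM in wild type. All LYL1 KO libraries lay below all wild-type libraries. The log2 fold change was -1.34 ± 0.33 (adjusted p = 0.319), and the gene was called by DESeq2's Wald test and when wild type 3 was left out. Relative to Csf1r, Ccr2 had a CPM ratio of 0.0674 to 0.0783 in LYL1 KO, against 0.153 to 0.212 in wild type. In LYL1 SCL DKO against wild type Ccr2 fell by 0.90 ± 0.32 (adjusted p = 0.0471), with overlapping groups, and without wild type 1 its log2 fold change was -0.57 (adjusted p = 0.205). Cx3cr1, the fractalkine receptor, was at 3.65 to 5.39 CPM in LYL1 SCL DKO, 4.13 to 5.06 CPM in LYL1 KO and 4.85 to 14.6 CPM in wild type. Its log2 fold change in LYL1 SCL DKO against wild type was -1.06 ± 0.39 (adjusted p = 0.0514), not called, but it was called lower by DESeq2's Wald test, with DESeq2's size factors, with the filter of 1 CPM in 3 libraries and with the replicate block.

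Genes of the lysosome and of secreted proteins were the most abundant members per kilobase of exon. Their mean levels were 2860 CPM per kilobase for Lyz2, 760.3 for Ctss, 610.4 for Ctsb and 291 for Lgals3, followed by Cyba at 220.4 and Tyrobp at 161. Of these 6 genes, edgeR called only Cyba lower against wild type, while DESeq2's Wald test also called Tyrobp lower in LYL1 SCL DKO, and edgeR called Lgals3 there without LYL1 SCL DKO 3. The lysosomal and secreted members are another set of 6: Lyz2, Ctss, Ctsb, Lgals3, Cd68 and Mpeg1. Against LYL1 KO, 5 of them, all but Ctss, were called lower in LYL1 SCL DKO, where 17.9% of all genes were.

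Lyz2, the lysozyme of macrophages and granulocytes, was at 2563, 2596 and 2861 CPM in LYL1 SCL DKO libraries, 2749, 3194 and 3620.2 CPM in SCL KO, 5555, 5656 and 3863 CPM in LYL1 KO and 4515, 3069 and 3201 CPM in wild type. Its LYL1 SCL DKO libraries lay below all LYL1 KO and all wild-type libraries, and it fell by 0.91 ± 0.20 against LYL1 KO (adjusted p = 0.00362). With library totals the value was -0.44 (adjusted p = 0.0782). Its near-identical neighbour Lyz1 was at 3.43 to 7.98 CPM, and how many reads shared by the pair were dropped by the counting was not tested. Ctss, a cysteine protease of antigen processing, was at 579.7, 761 and 979 CPM in LYL1 SCL DKO libraries, 541, 863 and 1141 CPM in SCL KO, 1593, 1836 and 975 CPM in LYL1 KO and 1528, 738 and 855 CPM in wild type, and its groups overlapped. Its log2 fold change against LYL1 KO was -0.92 ± 0.34 (adjusted p = 0.0553), and DESeq2's Wald test called it lower. Ctsb, another lysosomal protease, was at 1579, 1846 and 2716 CPM in LYL1 SCL DKO libraries, 2010.1, 2230.5 and 3485 CPM in SCL KO, 4207, 4659.9 and 2852 CPM in LYL1 KO and 4353, 2395 and 2379 CPM in wild type. Ctsb fell by 0.93 ± 0.31 against LYL1 KO (adjusted p = 0.0354). The Ctsb call was lost without LYL1 KO 1 or 2, without LYL1 SCL DKO 1 or 2, and with library totals, where the value was -0.45 (adjusted p = 0.268).

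Lgals3, the secreted galactose-binding lectin galectin-3, was at 285, 313 and 518 CPM in LYL1 SCL DKO libraries, 383, 416 and 688 CPM in SCL KO, 712, 848 and 558 CPM in LYL1 KO and 847, 452 and 473 CPM in wild type. Cd68, a membrane glycoprotein of the late endosome, was at 93.4, 124 and 171 CPM in LYL1 SCL DKO libraries, 125, 134 and 206 CPM in SCL KO, 281, 327 and 186 CPM in LYL1 KO and 305, 138 and 147 CPM in wild type. Mpeg1, which encodes the pore-forming protein perforin-2, was at 429.6, 510.3 and 574 CPM in LYL1 SCL DKO libraries, 466, 583 and 724 CPM in SCL KO, 1010.1, 1064 and 654 CPM in LYL1 KO and 1196, 605 and 498 CPM in wild type. For all 3 genes, every LYL1 SCL DKO library lay below every LYL1 KO library, and LYL1 KO 3 was the lowest of its group. They fell by 0.92 ± 0.31, 1.03 ± 0.34 and 0.85 ± 0.30 on the log2 scale against LYL1 KO (adjusted p = 0.0383, 0.0322 and 0.0475). All 3 calls were lost without LYL1 KO 1 or 2 and without LYL1 SCL DKO 1 or 2, and that of Mpeg1 also without LYL1 SCL DKO 3. With library totals they were lost too, with values of -0.44 for Lgals3 (adjusted p = 0.293), -0.55 for Cd68 (adjusted p = 0.217) and -0.37 for Mpeg1 (adjusted p = 0.331). In LYL1 SCL DKO against wild type the 6 genes of this group had log2 fold changes of -0.67 to -0.43, none called by edgeR.

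The NADPH oxidase genes did not move together. Ncf1 (chromosome 5, 134220053 to 134229625), which encodes the cytosolic subunit p47phox, was at 211, 404 and 212 CPM in LYL1 SCL DKO libraries, 93.3, 91.4 and 82.7 CPM in SCL KO, 146, 123 and 132 CPM in LYL1 KO and 157, 143 and 108 CPM in wild type. The 3 LYL1 SCL DKO libraries lay above all other libraries, and the 3 SCL KO libraries lay below all others. Ncf1 rose by 1.02 ± 0.23 against wild type (adjusted p = 0.00474), by 1.63 ± 0.23 against SCL KO (adjusted p = 0.000665) and by 1.04 ± 0.23 against LYL1 KO (adjusted p = 0.00387). The interaction was 1.66 ± 0.32 (adjusted p = 0.00928), where LYL1 KO differed from wild type by -0.03 ± 0.23 and LYL1 SCL DKO from SCL KO by 1.63 ± 0.23. These calls were kept when any 1 library of the contrast was left out, but the size rested in part on LYL1 SCL DKO 2. Without that library the log2 fold change was 0.64 against wild type (adjusted p = 0.00913), 0.67 against LYL1 KO (adjusted p = 0.00697) and 1.25 against SCL KO (adjusted p = 0.000641). With the Xist term the value against wild type was 0.83 (adjusted p = 0.0514), while the calls in the other 3 contrasts were kept. LYL1 SCL DKO 3, the only library of its group with high Xist RNA, had 212 CPM of Ncf1, against 108 to 157 CPM in wild type. Low Xist RNA was seen in LYL1 SCL DKO 1 and 2 and in no wild-type library, so Xist RNA and genotype are partly confounded. The part of that difference in the Ncf1 level was not tested.

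Cyba (chromosome 8, 122424776 to 122432930), which encodes the membrane subunit p22phox, was at 215, 141 and 146 CPM in LYL1 SCL DKO libraries, 136, 145 and 163 CPM in SCL KO, 366, 353 and 284 CPM in LYL1 KO and 296, 254 and 249.8 CPM in wild type. The 6 libraries of LYL1 SCL DKO and SCL KO lay below the 6 libraries of LYL1 KO and wild type. Cyba fell by 0.67 ± 0.17 in LYL1 SCL DKO against wild type (adjusted p = 0.00812), by 1.00 ± 0.17 against LYL1 KO (adjusted p = 0.000638), and by 0.85 ± 0.17 in SCL KO relative to wild type (adjusted p = 0.0112). In LYL1 SCL DKO against SCL KO its log2 fold change was 0.18 ± 0.16 (adjusted p = 0.496). The call in SCL KO was lost without SCL KO 1 (adjusted p = 0.0579), SCL KO 2 (adjusted p = 0.054) or wild type 1 (adjusted p = 0.0526). With LYL1 SCL DKO against wild type, the value was -0.65 (adjusted p = 0.0512) with the Xist term and -0.27 (adjusted p = 0.15) with library totals. With library totals Cyba was also among the 4 members called higher in LYL1 SCL DKO against SCL KO, with Cd86, Itgam and Ncf1.

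Cybb (chromosome X, 9435252 to 9487771), which encodes the catalytic subunit gp91phox, was at 93.4, 112 and 104 CPM in LYL1 SCL DKO libraries, 99.4, 117 and 132 CPM in SCL KO, 176, 185 and 127 CPM in LYL1 KO and 244, 134 and 99.1 CPM in wild type. It was not called by edgeR, with a log2 fold change of -0.63 ± 0.27 in LYL1 SCL DKO against wild type (adjusted p = 0.0892) and -0.66 ± 0.27 against LYL1 KO (adjusted p = 0.075); DESeq2's Wald test called it lower against LYL1 KO. The CPM ratio of Ncf1 to Cybb was 2.26, 3.62 and 2.05 in LYL1 SCL DKO 1, 2 and 3, against 0.627 to 1.09 in the other 9 libraries. Ncf4, which encodes the cytosolic subunit p40phox, was looked up after these values were seen. It had a log2 fold change of -0.53 ± 0.23 in LYL1 SCL DKO against wild type (adjusted p = 0.0907) and was not called.

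**Figure D4:**
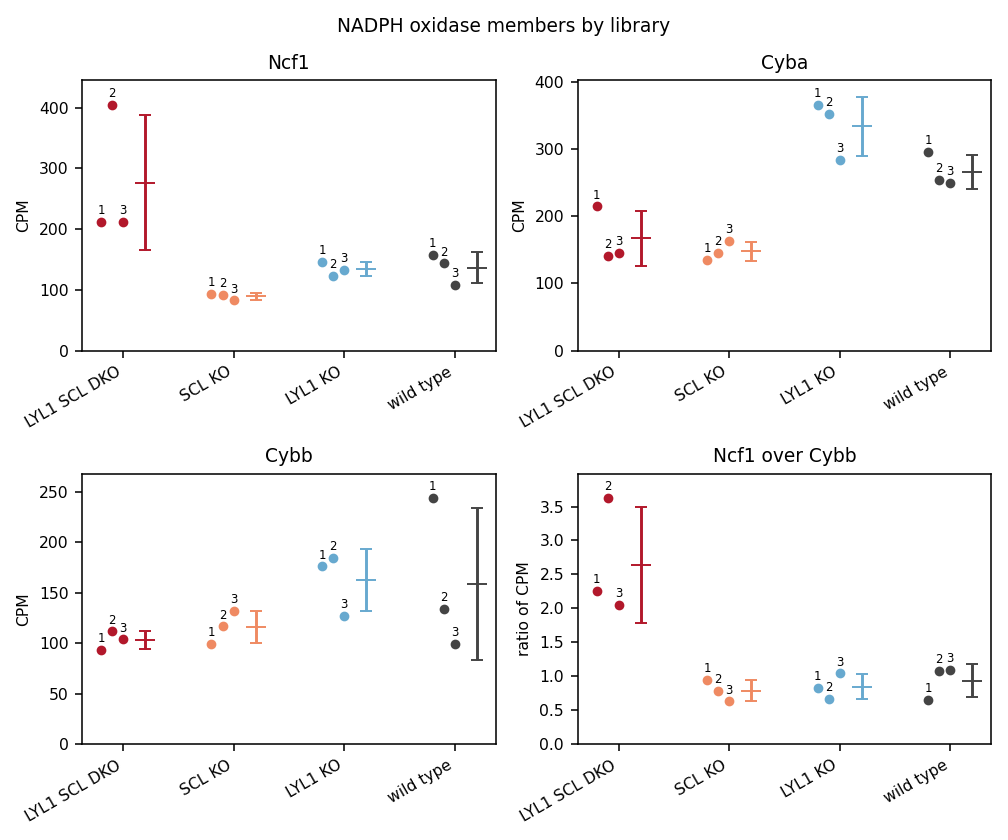
CPM of Ncf1, Cyba and Cybb, and the CPM ratio of Ncf1 to Cybb, in each library, numbered by replicate, with the mean and SD of each genotype beside the points. Ncf1 is highest in LYL1 SCL DKO (211 to 404 CPM) and lowest in SCL KO (82.7 to 93.3 CPM), and the ratio is above 2 only in LYL1 SCL DKO.

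Neutrophils also use this oxidase, and their markers were summed beside Ncf1. The 13 neutrophil genes summed to 763, 1078 and 431 CPM in LYL1 SCL DKO 1, 2 and 3, to 250.5 to 417 CPM in SCL KO, to 331 to 673 CPM in LYL1 KO and to 314 to 654 CPM in wild type. LYL1 SCL DKO 2 was the highest library for both this sum and Ncf1, but LYL1 SCL DKO 3 lay within the wild-type range of the sum while its Ncf1 level, 212 CPM, did not. S100a8, a calcium-binding protein of neutrophils, rose by 1.35 ± 0.41 against SCL KO (adjusted p = 0.0375). Of the 13, 2 were called higher against SCL KO and 2 against LYL1 KO; against wild type 1 was called lower and none higher, with 10 of the 13 fold changes positive. Of all genes, 8.37% were called higher against SCL KO and 17.4% against LYL1 KO. Their part in the Ncf1 result was not tested.

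Over the 12 libraries, most members varied together. The median Pearson correlation of log2 CPM over the 561 pairs of tested members was 0.63, and that of their deviations from the group means was 0.675. Those deviations were largest in wild type 1 and 3, so the second value rests in large part on wild type. Libraries share depth and scaling, and these values are a description. Against the mean of all others, Cybb had the highest correlation (0.984), followed by Irf8 (0.979), Clec7a (0.978), C1qb (0.963) and Csf1r (0.96). The lowest were Ncf1 (-0.169), Cd86 (0.104), Cd163 (0.378) and Ccr2 (0.397). For Cd86 the correlation of the deviations was 0.749, for Ncf1 it was 0.388.

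**Figure D5:**
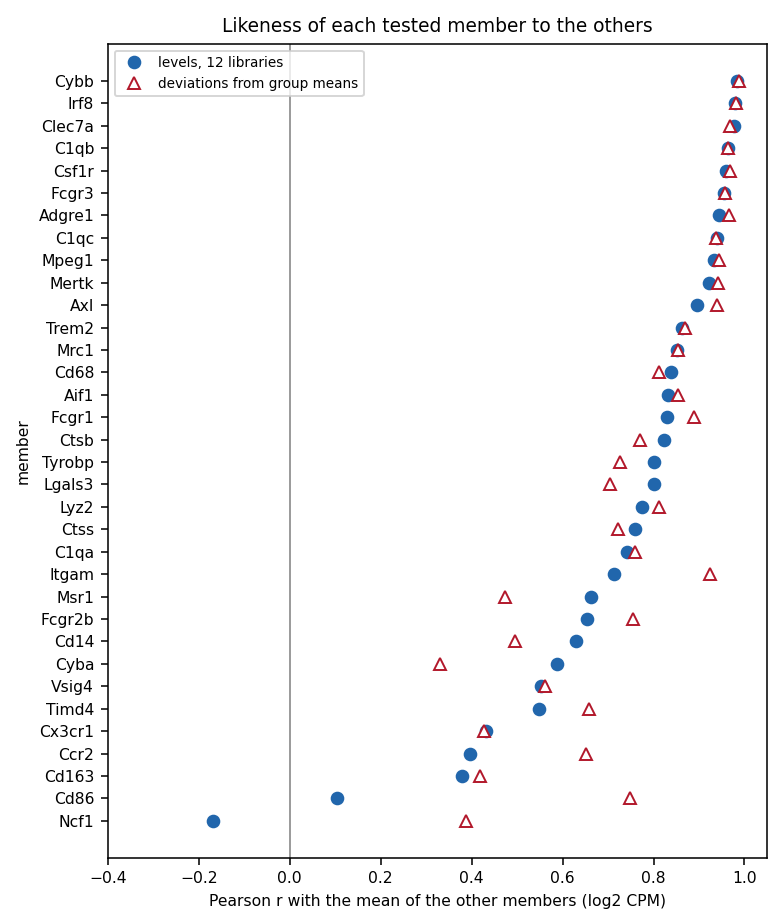
Pearson correlation of each tested gene with the mean of the other tested genes over 12 libraries, for log2 CPM (filled circles) and for deviations from the genotype means (open triangles). Most genes lie above 0.5 on both measures, and Ncf1 is the one below 0 for the levels.

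Among the 8 genes outside the list whose pattern was most like the members' mean, of 12792 genes of at least 1 CPM, were Siglec1 (r = 0.982), Abcg1 (0.974), Dnase2a (0.970), Ly9 (0.969), Tlr8 (0.968), Gna12 (0.967) and Clec12a (0.967). Siglec1, the sialic acid receptor CD169 of macrophages, was at 14.7, 17.5 and 17.1 CPM in LYL1 SCL DKO libraries, 24.6, 23.0 and 30.2 CPM in SCL KO, 45.3, 42.9 and 29.1 CPM in LYL1 KO and 80.8, 30.4 and 17.4 CPM in wild type, and fell by 1.38 ± 0.42 in LYL1 SCL DKO against wild type (adjusted p = 0.0243). Its order over the libraries was led by wild type 1, as for most members.

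A list of 57 other genes of mononuclear phagocytes, all tested and chosen with earlier results of these data known had calls in both directions. In LYL1 SCL DKO, 4 were called higher and 13 lower against wild type, 6 higher and 17 lower against LYL1 KO, and 6 higher and 2 lower against SCL KO. Of all genes, 16.4% were called higher and 18.1% lower against wild type, 17.4% and 17.9% against LYL1 KO, and 8.37% and 10.8% against SCL KO. In SCL KO against wild type 2 were called lower, the chemokine Ccl6 (-1.05 ± 0.19, adjusted p = 0.00661) and the lipopolysaccharide receptor Tlr4 (-0.74 ± 0.17, adjusted p = 0.0254), and none was called in LYL1 KO against wild type, where 3 had an unadjusted p under 0.05. The interaction called 5 higher and 2 lower (3.51% and 5.86% of all genes). The median log2 fold change of the list was -0.53 against wild type, -0.56 against LYL1 KO and -0.16 against SCL KO for LYL1 SCL DKO, -0.36 for SCL KO against wild type and 0.03 for LYL1 KO against wild type. Besides Il34, the smallest adjusted p-values against wild type belonged to P2ry12, an ADP receptor of microglia and platelets, and Itgb2, the beta chain shared by the leukocyte integrins. P2ry12 averaged 4.87 CPM in LYL1 SCL DKO and 148.5 CPM in wild type, and fell by 4.93 ± 0.50 (adjusted p = 2.25e-05). Itgb2 averaged 321 CPM in LYL1 SCL DKO and 723.5 CPM in wild type, and fell by 1.17 ± 0.18 (adjusted p = 0.000349). The most abundant of the list were Gpnmb, a glycoprotein of lysosomal membranes (1236 to 5198 CPM), and the lysosomal protease Ctsd, which averaged 1516 CPM in LYL1 SCL DKO and 2300.0 CPM in wild type.

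Markers of other cells were called in LYL1 SCL DKO at unequal shares, against 18.1% of all genes lower and 16.4% higher relative to wild type. Of the 20 megakaryocyte and platelet genes, 17 were called lower against wild type, and their sum was 19510 to 37947 CPM in LYL1 SCL DKO, 47667 to 65030 CPM in SCL KO, 68849 to 79004 CPM in LYL1 KO and 63380 to 72694 CPM in wild type. None of the 20 was at 0, and the most abundant were Ppbp and Itgb3. Of the other lists, LYL1 SCL DKO against wild type called 5 of 7 tested dendritic cell genes lower, 2 of 5 microglia genes lower, 1 of 6 osteoclast genes higher, 1 of 8 mast cell and basophil genes lower, 3 of 6 red cell genes lower and 1 higher, 4 of 9 endothelial genes lower and 1 higher, 3 of 5 lymphoid genes lower, 3 of 6 fibroblast genes lower and 1 of 2 yolk sac genes lower. The dendritic cell genes summed to 33.3 to 105 CPM in LYL1 SCL DKO and 89.5 to 155 CPM in wild type, most of it Clec9a, while Xcr1 had 12 counts over all libraries. The osteoclast sum was 160 to 179 CPM in LYL1 SCL DKO and 169 to 284 CPM in wild type, with 1 count of Calcr in all. The microglia sum was 64.97 to 87.02 CPM in LYL1 SCL DKO and 167 to 302 CPM in wild type, with 7 counts of the microglial factor Sall1. Against LYL1 KO, 17 megakaryocyte and platelet genes were called lower and 1 higher, and 5 of 6 red cell genes lower and 1 higher (all genes: 17.9% lower, 17.4% higher). The part of these cells in the results above was not tested.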

How the data were processed

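Polyadenylated RNA from 12 libraries labelled as pools of mouse embryos (4 genotypes, 3 libraries each) was sequenced with a stranded kit, per the labels' protocols. The authors deposited raw read counts per gene, made with featureCounts of Subread 1.5.2 on the reverse strand with Ensembl 87 gene models and without multi-mapping reads, per the file headers. Alignment was with STAR 2.5.2b to GRCm38, per the submitters' processing notes. Reads of near-identical genes are lost in such counting.

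Symbols were matched for 49326 of 49671 genes. Counts of the 12 libraries were fitted together by edgeR 4.0.16 in R 4.3.3 (filterByExpr with a minimum count of 10 and total of 15, TMM factors, robust quasi-likelihood F-test), with 5 pairwise contrasts and the interaction, and p-values were adjusted by Benjamini-Hochberg over 15399 genes. Every call and adjusted p in the text is that of edgeR's main analysis unless another tool or setting is named; SE is that of the log2 fold change. The common biological coefficient of variation was 0.234. The fit was tested on simulated data. Promoter windows came from RefSeq. DESeq2 1.42.0, limma 3.58.1 (voom), other filters, scalings, a replicate block, a term for Xist RNA and fits without each library were the alternatives. Groups and replicate numbers were taken from the sample titles. Limits from 3 counts cover counting error only.

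The members and gene lists were chosen with earlier results of these data known. Members called in a pairwise contrast, or among the 6 highest per kilobase, were given with all 12 values; of other lists, up to 3 called genes per contrast with the smallest adjusted p and the 2 most abundant were named. Cd86, Cybb, C1qb and the values of further genes were added after they were seen. Some genes that these rules name are not reported here.

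Deviations of same-numbered LYL1 SCL DKO and SCL KO libraries from their group means correlated at r = 0.2155, 0.1497 and 0.4407. On these values the pairing by number was accepted for that contrast, since the labels do not say what a number marks. The main fit did not use it, so the p-values given for that contrast are unpaired. No paired fit of the LYL1 SCL DKO and SCL KO libraries alone was run. Libraries of different numbers were not compared, so the values cannot show that a number marks a true pair. In the other pairs of groups at least 1 correlation was under 0.1. For SCL KO and wild type the values were 0.09999, 0.144 and 0.3608, so that cut was narrow.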

Additional observations from a re-analysis of the deposited data

Results flagged for a closer look

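Ncf1, which encodes the cytosolic oxidase subunit p47phox, responded differently to Lyl1 loss without and with Scl. The test of that difference, edgeR's interaction term, gave 1.66 ± 0.32 on the log2 scale (adjusted p = 0.00928). Ncf1 was higher in all 3 LYL1 SCL DKO libraries (211, 404 and 212 CPM) than in any SCL KO library (82.7 to 93.3 CPM), while LYL1 KO (123 to 146 CPM) and wild type (108 to 157 CPM) overlapped. Without LYL1 SCL DKO 2, the highest library, the interaction was 1.28 (adjusted p = 0.00636).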

How the results depend on the processing

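Of 25 called member changes, 4 kept their call in every setting tried: Ncf1 in LYL1 SCL DKO against SCL KO, against LYL1 KO and in the interaction, and Cyba in LYL1 SCL DKO against LYL1 KO. The other 21 lost it in 1 setting or more. No direction was reversed in the 380 combinations of a change and a setting. The changes share the same alternative fits, so these combinations are not independent. The cause of these shifts was not tested. Library totals without scaling factors were added after seeing the data.

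In LYL1 SCL DKO against wild type, 10 members were called in the main analysis, 4 with no filter on low counts, 17 by DESeq2's Wald test, 5 by limma-voom, 1 with the Xist term, 4 with only the 6 libraries compared and 6 with library totals; leaving out 1 library gave 2 to 21 (the lowest without wild type 1 and the highest without wild type 3; 5 and 6 without LYL1 SCL DKO 1 and 2). Over all genes, this contrast called 5312 in the main analysis, 4567 with no filter, 5931 by DESeq2 and 5150 by limma-voom. It called 3809 with the Xist term, 3596 with only the 6 libraries, 8065 with library totals and 3899 to 5528 without 1 library. Against LYL1 KO, 12 members were called, 4 with no filter, 6 with the Xist term and 21 with only the 6 libraries. There were 4 with library totals, and 3 to 14 without 1 library. Over all genes this gave 5422, with 4696, 4852, 5062 and 8313 in these settings in the same order, and 3884 to 5162 without 1 library. Against SCL KO, 1 member was called, 3 by DESeq2, 2 with the Xist term and 4 with only the 6 libraries. There were 4 with library totals (all higher), and 1 to 2 without 1 library (2 without LYL1 SCL DKO 1). Over all genes this gave 2947, with 3700, 2089, 1742 and 4834 in these settings in the same order, and 1645 to 3222 without 1 library. The interaction called 1, and 3 by DESeq2, 2 with the Xist term, 3 with library totals and 1 to 4 without 1 library (4 without wild type 1, 3 without wild type 3); the setting with only 6 libraries does not apply to it. Over all genes, the interaction called 1444, with 2262 by DESeq2, 1371 with the Xist term and 2461 with library totals. Without 1 library it called 671 to 1925. SCL KO against wild type called 1 member, with 0 to 5 without 1 library. Over all genes it called 774, with 388 to 955 without 1 library. LYL1 KO against wild type called 0 members, 1 by DESeq2, and 0 to 1 without 1 library. Over all genes it called 11, 103 by DESeq2, and 5 to 41 without 1 library.

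With the replicate number as a block, the counts were 3 in LYL1 SCL DKO against SCL KO, 2 in the interaction, 6 in LYL1 SCL DKO against LYL1 KO and 8 in LYL1 SCL DKO against wild type; no other contrast changed its count. Over all genes, the block gave 3722, 2100, 6043 and 5970 calls in these 4 contrasts, in the same order. All 12 libraries were in this fit, and whether libraries of the same number share anything else was not tested.

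The summed level without Lyz2 was 5259.4 CPM in LYL1 SCL DKO, 6161.5 CPM in SCL KO and 9368.3 CPM in LYL1 KO, and with library totals it was 9803.6 CPM in LYL1 SCL DKO and 9417.6 CPM in SCL KO, which turns the order of these 2 groups. At this depth Marco, Cd163 and Timd4 rest on few counts.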
